A study of Homo sapiens with 4 samples.

Results

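The regions described here were distal sites of open chromatin that were called as peaks in MCF10A cells without doxycycline (No Dox) and not called after TAZ-4SA was induced with Dox. They were chosen by 3 values. The union region, made by merging the peaks of both lists that overlapped or touched on chromosomes 1 to 22 and X, held No Dox peaks alone. Its strongest peak had a fold enrichment over background of at least 6, and the region lay 3 to 100 kb from the nearest transcription start site (TSS) of any GENCODE release 44 transcript. This gave 1863 No-Dox-only distal regions of 149858 union regions. All are positions in the human genome build hg38.

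The assay was ATAC-seq, which maps accessible DNA by where a transposase inserts adapters. MCF10A cells are a line of human mammary epithelium that is not transformed, and the cells of both groups carried a tet-inducible TAZ-4SA, a constitutively active form of TAZ. The Dox group received 0.05 µg/mL doxycycline for 72 h and the No Dox group none, and both grew with horse serum, EGF, hydrocortisone, cholera toxin and insulin. The question was which chromatin opened or closed upon TAZ activation. There were 2 replicates per condition, 50000 cells were used per reaction, and the authors pooled the replicates before calling 1 peak list per condition. No cells with Dox but without the transgene were analysed here, so Dox itself and TAZ-4SA cannot be told apart.

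With 1 pooled list per condition, no value had a spread between replicates, and no p-value could be given. Shares of regions are given with exact Clopper-Pearson intervals of 95%, which cover counting error only, and a difference between shares was read where these intervals lay apart. Read counts are not part of the lists, so the depth behind each condition's list could not be read from them. The No Dox list held 117740 peaks and the Dox list 84353, and a region without a Dox peak is one that did not pass the authors' peak calling there, not one shown to be closed. Of 10 genes that mark MCF10A cells, 8 had a promoter peak, one at most 1 kb from a TSS, in both lists, including KRT5, KRT17, CDH1 and EPCAM. KRT14 had none in either list and TP63 had one in the Dox list alone. Of 12 immune markers, 3 had a promoter peak in both lists, and of 10 endothelial markers, 2.

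Distal open sites of this kind often mark enhancers, at which sequence-specific factors bind and act on genes at a distance. TAZ has no DNA-binding domain and is held on DNA by the TEAD factors, frequently at sites near AP-1, the dimer of FOS and JUN proteins. AP-1 is also a main factor of open chromatin in epithelial cells in general. The p53 relative p63 keeps the enhancers of basal epithelium accessible, and the C/EBP factors act in mammary epithelial growth and differentiation and in the acute-phase response.

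Sequences at the summits show what these regions held, each as the summit base with 50 bases on either side, on the plus strand of hg38. The 5 regions of the highest fold with an AP-1 match within 50 bp of the summit are given first, and exons and 1 chromosome were left out of all sequences shown, with TGAGTCA or TGACTCA in capitals:
Intron of NPFFR2, fold 15.0, chr4:72112679-72112779: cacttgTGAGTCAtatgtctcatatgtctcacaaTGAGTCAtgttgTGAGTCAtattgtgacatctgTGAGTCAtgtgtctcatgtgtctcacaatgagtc
Intergenic, 36.0 kb from the TSS of ENSG00000235538, fold 14.4, chr6:163634687-163634787: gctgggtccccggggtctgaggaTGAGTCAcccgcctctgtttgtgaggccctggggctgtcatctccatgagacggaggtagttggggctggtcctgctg
Intergenic, 18.0 kb from the TSS of ENSG00000232353, fold 14.4, chr3:192011294-192011394: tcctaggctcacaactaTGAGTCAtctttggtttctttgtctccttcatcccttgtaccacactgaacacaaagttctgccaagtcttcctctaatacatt
Intron of ANKS1B, fold 14.2, chr12:99918110-99918210: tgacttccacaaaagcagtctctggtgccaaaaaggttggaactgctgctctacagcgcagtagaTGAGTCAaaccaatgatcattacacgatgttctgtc
Intergenic, 35.2 kb from the TSS of ENSG00000271671, fold 13.8, chr3:96209870-96209970: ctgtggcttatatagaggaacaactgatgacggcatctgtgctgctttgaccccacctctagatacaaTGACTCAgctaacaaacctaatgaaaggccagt

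The NPFFR2 region stood apart among these in that 4 AP-1 matches lay within 50 bp of its summit, centred 41, 13 and 1 bp before it and 20 bp after it in a repeating array. The other 4 held 1 match each in these bases. The region of the highest fold of all, 83.2 kb from the TSS of BCHE, also carried a C/EBP match, shown in capitals, centred 18 bp before the summit:
Intron, 83.2 kb from the TSS of BCHE, fold 18.9, chr3:165753734-165753834: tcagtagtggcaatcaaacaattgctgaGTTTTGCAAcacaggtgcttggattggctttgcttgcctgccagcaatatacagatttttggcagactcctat
The strongest region with a p53/p63 match near the summit lay 25.3 kb from the TSS of RNU6-692P, and the match, in capitals, was centred 1.5 bp from the summit:
Intergenic, 25.3 kb from the TSS of RNU6-692P, fold 15.3, chr2:147382482-147382582: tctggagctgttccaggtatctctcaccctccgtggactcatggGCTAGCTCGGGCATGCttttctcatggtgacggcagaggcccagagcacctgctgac
A TEAD match was rare in these regions. The strongest that held one within 50 bp, with the match in capitals, was in an intron 93.9 kb from the TSS of ENSG00000228167, and the match lay 34 bp after the summit:
Intron, 93.9 kb from the TSS of ENSG00000228167, fold 14.0, chr1:194813243-194813343: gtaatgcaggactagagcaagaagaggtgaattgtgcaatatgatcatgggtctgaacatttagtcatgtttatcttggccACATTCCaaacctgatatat
The 3 strongest regions of those left with no AP-1 match within 100 bp are shown for contrast, with no capitals:
Intron, 17.8 kb from the TSS of ENSG00000285820, fold 17.6, chr9:116856336-116856436: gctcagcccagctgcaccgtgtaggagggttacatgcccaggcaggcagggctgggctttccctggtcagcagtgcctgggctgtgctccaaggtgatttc
Intron, 22.9 kb from the TSS of PYDC2, fold 16.5, chr3:191484622-191484722: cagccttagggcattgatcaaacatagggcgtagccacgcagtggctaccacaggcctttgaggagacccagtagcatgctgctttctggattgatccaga
Intergenic, 99.4 kb from the TSS of ENSG00000280773, fold 15.9, chr11:104352140-104352240: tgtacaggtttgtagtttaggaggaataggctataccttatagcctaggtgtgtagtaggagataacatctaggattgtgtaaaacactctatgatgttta

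The fold of the 1863 regions ran from 6.14 to 18.9 with a median of 7.20, and these folds chose the regions. At the threshold, 222 regions sat at 6.14, the lowest value inside, and 290 distal No-Dox-only regions sat at 5.93, the next value outside. The 2 nearest regions were 3005 bp from a TSS, where 1 just outside lay at 2989 bp, and the farthest was at 99871 bp, where 1 just outside lay at 100138 bp. Without the limits on distance there were 2458 No-Dox-only regions of this fold, of which 404 lay under 3 kb from a TSS and 191 over 100 kb. Of the distal union regions with a fold of 6 or more in either list, 12.5% were No-Dox-only and 11.5% Dox-only (1863 and 1720 of 14961). For scale, 45.3% of all union regions and 51.1% of all distal ones were No-Dox-only. These shares describe what the rule used, and folds were not compared between the lists, since each list has its own step (0.212 in No Dox and 0.226 in Dox).

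**Figure D1:**
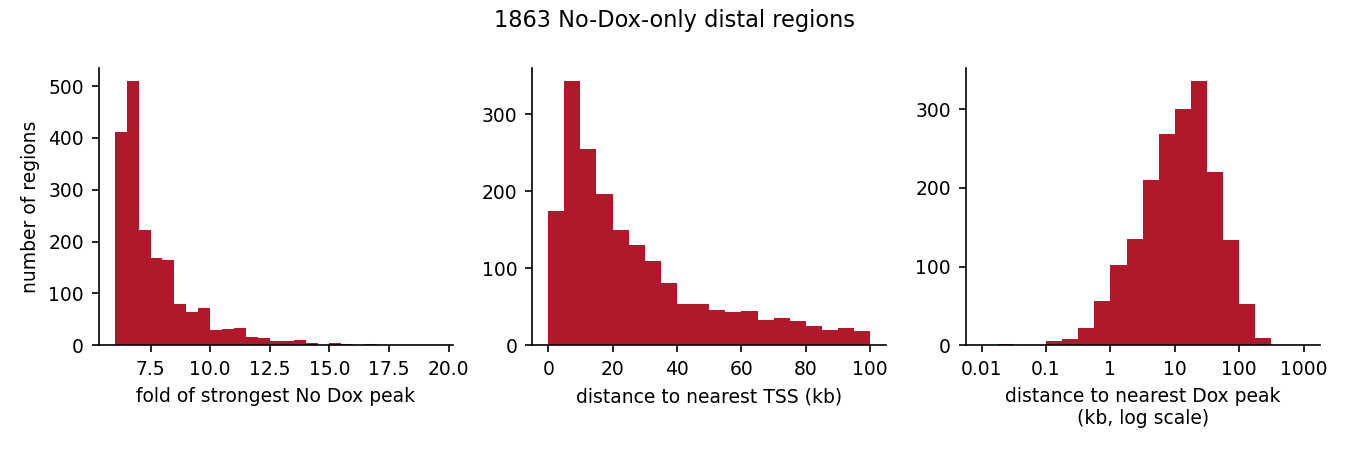
Number of No-Dox-only distal regions (vertical axes) by the fold of the strongest No Dox peak, by the distance to the nearest TSS in kb, and by the distance to the nearest Dox peak in kb on a log scale. The 921 regions of fold 6 to 7 form the left edge of the first panel, and in the third panel the median distance to a Dox peak is 12.9 kb.

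Few of the regions adjoined a Dox peak. The median distance to the nearest Dox peak was 12.9 kb, 5.10% (4.14 to 6.20) had one within 1 kb, and 43.5% (41.3 to 45.8) had one within 10 kb. Dox-only distal regions of fold 6 or more lay a median of 9.56 kb from the nearest peak of the longer No Dox list. For the No-Dox-only regions, the median distance to the nearest shared region, one with peaks of both lists, was 18.4 kb. Their median width was 643 bp, against 605 bp in the Dox-only regions chosen by the same fold and distance (1720 regions) and 1006 bp in the shared distal regions with a No Dox fold of 6 or more (8879 regions). The last 2 groups serve as comparison throughout. By annotation of the summit, 56.3% (54.0 to 58.5) lay in introns, 41.2% (38.9 to 43.4) were intergenic, 0.913% lay in UTRs and 1.66% in other exons. Introns held 58.7% (56.3 to 61.0) of the Dox-only and 57.1% (56.1 to 58.1) of the shared distal regions, so the intervals overlapped. The median distance to a TSS was 18.9 kb, against 18.2 kb and 17.3 kb. The DNA within 100 bp of the summit had a median GC content of 44.3%, between the 43.3% of Dox-only and the 47.8% of shared distal regions. At least 1 CpG lay in 78.6% (76.7 to 80.5) of the regions, in 73.8% (71.6 to 75.8) of Dox-only and in 85.1% (84.3 to 85.8) of shared distal ones.

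Motifs were fixed sequences, looked for on either strand up to 100 bp from the summit, and none of them was used to choose the regions. The AP-1 sequence TGACTCA or TGAGTCA, which are reverse complements of each other, was present in 768 of the 1863 regions, 41.2% (39.0 to 43.5). The share was 15.9% (14.2 to 17.7) in Dox-only distal regions, 38.5% (37.5 to 39.6) in shared distal regions and 13.1% in all union regions. The interval of the No-Dox-only regions thus lay far above that of the Dox-only regions and overlapped that of the shared ones. More than 1 match was present in 4.46% of the regions, 0.523% of Dox-only and 5.03% of shared distal regions. A reversed control, ACTCAGT or ACTGAGT, was present in 5.31% (4.34 to 6.43), 4.42% (3.50 to 5.50) and 4.80% (4.36 to 5.26), with overlapping intervals. The control can overlap AP-1 itself, and it was present in 7.68% (5.90 to 9.80) of the No-Dox-only regions with an AP-1 match and in 3.65% (2.62 to 4.94) of those without.

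TEAD sites showed the opposite order. ACATTCC or GCATTCC, bound by TEAD factors, was present in 83 of the 1863 regions, 4.46% (3.56 to 5.49). In Dox-only distal regions the share was 42.4% (40.1 to 44.8), in shared distal regions 12.5% (11.8 to 13.2) and in all union regions 8.48%. The No-Dox-only regions were therefore below even the level of all union regions. Their few TEAD matches lay at a median of 53 bp from the summit, against 38 bp in Dox-only regions. The reversed control CCTTACA or CCTTACG was present in 3.38% (2.61 to 4.31) of No-Dox-only regions, whose interval overlaps that of the TEAD sequence itself. AP-1 and TEAD matches stood together in 26 regions, 1.40% (0.914 to 2.04), against 5.29% (4.28 to 6.46) of Dox-only and 4.20% (3.79 to 4.64) of shared distal regions.

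**Figure D2:**
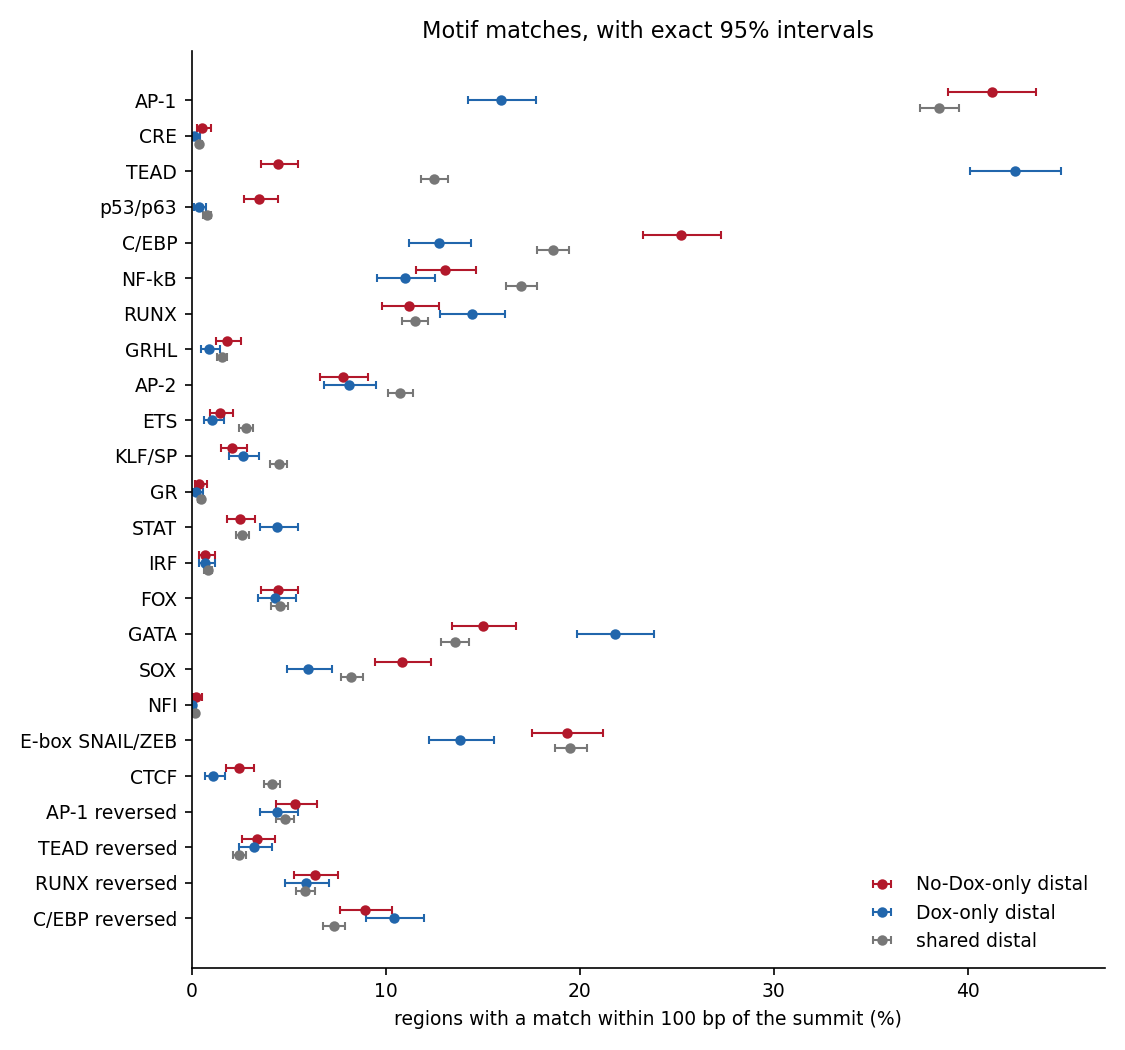
Share of regions with a motif match within 100 bp of the summit (horizontal axis, percent) for 20 motifs and 4 reversed controls, in No-Dox-only, Dox-only and shared distal regions; points are shares and bars are exact intervals of 95%. AP-1 stands at 41.2% in No-Dox-only and 15.9% in Dox-only regions, TEAD at 4.46% and 42.4%, and C/EBP and p53/p63 are highest in No-Dox-only regions.

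The C/EBP sequence (TTACNNAAC, TTACNNAAT, TTGCNNAAC or TTGCNNAAT) was present in 470 of the 1863 regions, 25.2% (23.3 to 27.3). This was above both the Dox-only distal regions, 12.7% (11.2 to 14.4), and the shared distal regions, 18.6% (17.8 to 19.4), and all union regions held it in 9.84%. Its reversed control (CAANNCATT, CAANNCGTT, TAANNCATT or TAANNCGTT) was present in 8.91% (7.66 to 10.3), 10.4% (9.0 to 11.9) and 7.32% (6.79 to 7.88). Regions low in GC held the C/EBP sequence more often in each group, so the groups were also set side by side at the GC content of the No-Dox-only regions, in 5 bins. The share was then 22.6% in shared distal and 12% in Dox-only regions, so the shared regions came nearer to the No-Dox-only ones and the Dox-only regions did not. In each of the 5 bins the share was higher in the No-Dox-only than in the shared regions, but the intervals overlapped in all of them. In the bin of 45 to 50% GC, for example, the shares were 22.3% (18.5 to 26.4) and, in shared regions, 18.5% (16.8 to 20.2).

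The p53/p63 motif, a repeated element around a spacer of any 4 bases, was rare everywhere and most frequent in the No-Dox-only regions. It was found in 65 of the 1863 regions, 3.49% (2.70 to 4.43), against 0.349% (0.128 to 0.758) of Dox-only and 0.766% (0.595 to 0.970) of shared distal regions, and 0.484% of all union regions. At the GC content of the No-Dox-only regions the share was 0.775% in shared and 0.397% in Dox-only regions. It stood mostly where AP-1 did not: 4.84% (3.65 to 6.28) of the regions without an AP-1 match held it and 1.56% (0.810 to 2.71) of those with one. In shared distal regions these shares were 0.898% (0.665 to 1.19) and 0.555% (0.335 to 0.866). This order was not particular to p53/p63. In No-Dox-only regions without and with an AP-1 match, C/EBP was present in 28.1% and 21.1%, AP-2 in 9.59% and 5.21% and CTCF in 3.84% and 0.391%, with intervals apart. By distance from a TSS, the p53/p63 motif was held by 3.29% (1.93 to 5.21) of the No-Dox-only regions at 3 to 10 kb, 5.07% (3.59 to 6.92) at 10 to 30 kb and 1.79% (0.895 to 3.17) at 30 to 100 kb. The last 2 intervals lay apart, the first overlapped both, and the order was not a steady decline. The 65 regions had a median fold of 7.20, a median GC content of 47.8% and a median distance of 15.2 kb from a TSS. Among them were one 4.51 kb from a TSS of CTNND1, which encodes the junction protein p120-catenin, at fold 8.90. Another lay 71.9 kb from the coding TSS of PERP, a desmosomal gene known as a target of p53 and p63, at fold 7.41. The TSS nearest to it was that of RPSAP42, at 39.7 kb. One lay 12.1 kb from a TSS of AMOTL1, a partner of YAP and TAZ, at fold 6.78. Regions assigned to the mesenchymal gene POSTN and to SEMA6D also held the motif, both at fold 6.99. The strongest of the 65, at folds of 15.3 and 12.5, had ACVR2A and SPATA31D1 as nearest coding genes. The genes named are examples, and whether the 65 regions favour any kind of gene was not tested.

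**Figure D3:**
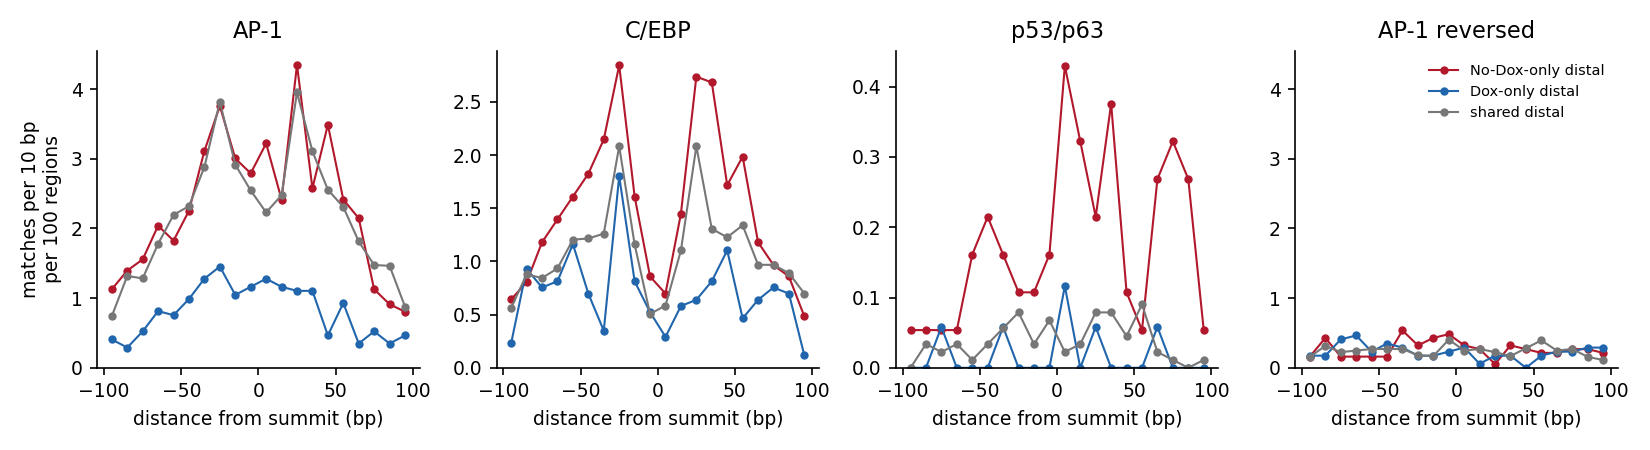
Matches per 10 bp per 100 regions (vertical axes) against the distance of the match from the summit in bp, for AP-1, C/EBP, p53/p63 and the reversed AP-1 control, in the 3 groups of regions. AP-1 matches of No-Dox-only regions gather about the summit with a median distance of 37 bp, and the reversed control stays lower.

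The 863 AP-1 matches of the No-Dox-only regions were at a median of 37 bp from it, 36.3% within 25 bp and 12.2% over 75 bp away, and the 3913 of the shared regions at a median of 36 bp. C/EBP matches were at a median of 40 bp, with 53 matches in the 10 bp centred 25 bp before the summit and 51 in those centred 25 bp after it, and 16 and 13 in the bins next to the summit. Matches of some other motifs were no nearer than an even spread over the 100 bp would be, with medians of 62.5 bp for GATA, 63.5 bp for IRF, 53 bp for TEAD and 51.5 bp for STAT. The base before TGACTCA was A in 42.8% (39.5 to 46.2) of matches, against 37.4% (35.8 to 38.9) in shared and 34.6% (29.1 to 40.5) in Dox-only regions. The base after it was T in 38.6% (35.3 to 42.0), against 36.4% (34.9 to 38.0) and 28.2% (23.02 to 33.9). The intervals lay apart from the shared regions for the A and from the Dox-only regions for the T.

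Among the other motifs, the SOX sequence ACAAAGG or ACAATGG was present in 10.8% (9.47 to 12.3), against 5.99% (4.91 to 7.22) of Dox-only and 8.23% (7.67 to 8.82) of shared distal regions and 6.58% of all union regions. At the GC content of the No-Dox-only regions the shared regions had 9.0%. With AP-1, C/EBP and p53/p63, SOX was among 6 of the 20 motifs more frequent than in Dox-only regions with intervals apart. The other two were the SNAIL and ZEB E-box CAGGTG and CTCF. CAGGTG was present in 19.3% (17.6 to 21.2), against 13.8% (12.2 to 15.6) in Dox-only and 19.5% (18.7 to 20.4) in shared regions and 19.9% of all union regions. The CTCF motif was present in 2.42% (1.77 to 3.22), above the 1.10% (0.666 to 1.72) of Dox-only and below the 4.13% (3.73 to 4.57) of shared regions, beside 3.22% of all union regions. It was held by 2.93% of the distal union regions of any fold, within the interval of the No-Dox-only regions.

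GATA, RUNX and STAT sequences joined TEAD as the 4 motifs less frequent than in Dox-only regions. The sequence of the GATA factors, which is AGATAA or alternatively TGATAA, was present in 15.0% (13.4 to 16.7) against 21.8% (19.9 to 23.8) of Dox-only regions, beside 13.5% of shared and 15.3% of all union regions. RUNX (TGTGGTC or TGTGGTT) was present in 11.2% (9.82 to 12.7) against 14.4% (12.8 to 16.2), beside 11.5% of shared and 7.98% of all union regions. STAT (TTCCNGGAA or TTCTNGGAA) was present in 2.47% (1.81 to 3.28) against 4.42% (3.50 to 5.50), beside 2.59% of shared and 2.0% of all union regions. In these 3 the No-Dox-only and shared distal regions had overlapping intervals. All union regions include promoters, and in the distal ones of any fold the shares were 17.3% for GATA, 8.58% for RUNX and 2.06% for STAT. The interval of the No-Dox-only regions lay below the first, above the second and held the third.

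Compared with the shared distal regions, 3 motifs were more frequent (C/EBP, p53/p63 and SOX) and 6 less frequent with intervals apart, namely TEAD, CTCF, NF-kB, AP-2, ETS and KLF/SP. For C/EBP, as given above, and also for SOX, the intervals overlapped within each of the 5 bins of GC content. NF-kB (GGANNCCCC, GGANNCTCC, GGANNTCCC, GGANNTTCC, GGGNNCCCC, GGGNNCTCC, GGGNNTCCC or GGGNNTTCC) was present in 13.0% (11.5 to 14.7) against 17.0% (16.2 to 17.8), and in 17.6% of all union regions. AP-2 (GCCNNNGGC) was present in 7.78% (6.61 to 9.09) against 10.7% (10.1 to 11.4) and in 10.3% of all union regions. ETS (CCGGAAA or CCGGAAG) was present in 1.45% (0.957 to 2.10) against 2.77% (2.44 to 3.13) and in 2.92% of all. KLF/SP (GGGCGGGGC, GGGCGTGGC, GGGTGGGGC or GGGTGTGGC) was present in 2.09% (1.49 to 2.85) against 4.47% (4.05 to 4.92) and in 4.78% of all. All union regions include promoters. In the distal union regions of any fold the shares were 15.4% for NF-kB, 7.68% for AP-2, 1.51% for ETS and 2.44% for KLF/SP. The last 3 lay within the intervals of the No-Dox-only regions, so these were not below the distal background. These 4 sequences are rich in G and C, and the No-Dox-only regions had a median GC content of 44.3% against 47.8% in the shared ones. The part of GC content in these differences was not tested.

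For the remaining motifs the intervals overlapped those of both comparison groups. They were FOX (TGTTTAC, 4.46% of No-Dox-only and 3.07% of all union regions), GRHL (AACCNGTT, 1.83% and 1.26%), CRE (TGACGTCA, 0.537% and 0.347%), IRF (0.698% and 0.733%), the glucocorticoid receptor motif (0.376% and 0.199%) and NFI (0.215% and 0.0574%). At least 1 of AP-1, C/EBP and p53/p63 was present in 60.01% (57.7 to 62.2) of the No-Dox-only regions, against 27.4% (25.3 to 29.6) of Dox-only and 51.6% (50.6 to 52.6) of shared distal regions. In the other 745 regions none of these 3 was found.

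All sequences of 7 bases were also counted, without a fixed motif. Of the 12 with the largest excess over the shared distal regions, the first was ATGACTC, an A and the first 6 bases of TGACTCA without its last base. It was held by 20.9% of the No-Dox-only regions, beside 17.4% of the shared and 8.49% of the Dox-only ones. ACAATGA, which overlaps the SOX sequence in its first 6 bases, followed with 7.51%, 4.03% and 4.88%. TTGCTTA and TTGCATA, which begin like the C/EBP sequence, were present in 7.46% and 6.60%, against 4.02% and 3.28% of shared regions. AACAAAG had 7.94% against 5.15%, ATTGTTT 7.46% against 4.63%, TTTCACA 9.18% against 6.21%, and TGACTCA itself 41.2% against 38.5%. The other 4 of the 12 were runs rich in A and T, with TTGTTTT in 10.3%, TTTGTTT in 10.8%, TTATTTT in 8.64% and TTTGAAA in 8.32% of the No-Dox-only regions, against 7.34%, 8.10%, 6.0% and 5.71% of the shared ones. At the other end ACATTCC, the TEAD sequence, had the largest deficit, with 2.25% against 7.52% of shared and 26.2% of Dox-only regions. Most of the 12 largest deficits were of sequences rich in G and C, such as CCAGGCC with 4.46% against 8.59% and CCCTGCC with 6.07% against 9.87% of shared regions. The No-Dox-only regions had a lower median GC content than the shared ones, and its part in this ranking was not tested.

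**Figure D4:**
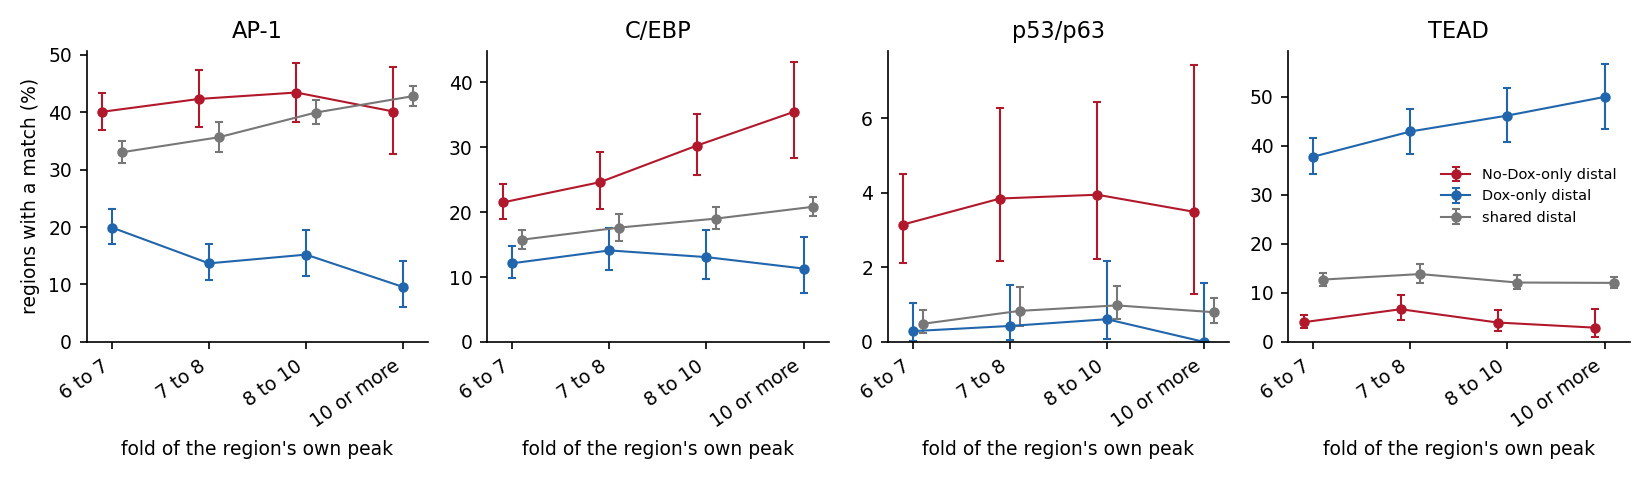
Share of regions with a match (vertical axes, percent) by the fold of the region's own strongest peak in 4 bins, for AP-1, C/EBP, p53/p63 and TEAD; points are shares and bars exact intervals of 95%. C/EBP climbs from 21.5% to 35.5% in No-Dox-only regions, while AP-1 stays between 40.1% and 43.4%.

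Motif shares moved with the fold within the No-Dox-only regions in the case of C/EBP. Its share was 21.5% (18.9 to 24.3) of the 921 regions of fold 6 to 7, 24.6% (20.4 to 29.2) of 390 at 7 to 8, 30.3% (25.7 to 35.2) of 380 at 8 to 10 and 35.5% (28.3 to 43.1) of the 172 at 10 or more. The first and the last interval lay apart, and the median GC content was 44.3% in both bins. In shared distal regions the share went from 15.8% (14.3 to 17.3) to 20.8% (19.4 to 22.3), and from 19.3% to 24.9% at the GC content of the No-Dox-only regions of the same bins. AP-1 took another course. It was nearly level in No-Dox-only regions, from 40.1% (36.9 to 43.3) in the lowest to 40.1% (32.7 to 47.9) in the highest bin, and went from 33.0% (31.1 to 34.99) to 42.8% (41.0 to 44.5) in shared regions. In the lowest bin the No-Dox-only regions were thus above the shared ones with intervals apart, also beside the 35.5% of shared regions at the same GC content, and in the highest bin the intervals overlapped. In Dox-only regions AP-1 went from 19.9% (17.0 to 23.1) to 9.57% (6.09 to 14.1). TEAD stayed between 2.91% and 6.67% and p53/p63 between 3.15% and 3.95% over the bins of No-Dox-only regions.

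By annotation, the AP-1 shares had overlapping intervals. AP-1 was present in 40.2% (36.0 to 44.6) of first introns, 42.6% (38.3 to 46.9) of other introns and 41.3% (37.8 to 44.9) of intergenic No-Dox-only regions, and TEAD in 4.98%, 3.80% and 4.43%. With the distance to the TSS, AP-1 was present in 41.0% (36.7 to 45.4) at 3 to 10 kb, 36.2% (32.7 to 39.8) at 10 to 30 kb and 47.4% (43.4 to 51.4) at 30 to 100 kb, where the last interval lies above the one before. C/EBP was present in 26.9%, 23.6% and 25.8% of these bins, with overlapping intervals.

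By chromosome, the number of No-Dox-only regions per 100 shared distal regions ran from 0 on chromosome 22 to 34.7 on chromosome 9 (86 regions). Chromosome 1 had the largest number of shared distal regions (1412) and 184 No-Dox-only ones, 13.0 per 100. Chromosome X held 77 No-Dox-only and 47 Dox-only regions, so that 62.1% (52.9 to 70.7) of its condition-only regions were No-Dox-only, against 52.0% (50.3 to 53.6) over all chromosomes, and these intervals overlap. Chromosome 22 held 0 No-Dox-only, 8 Dox-only and 42 shared distal regions, so its share of 0% allowed up to 36.9%. This interval lay below the one over all chromosomes, but it rests on 8 condition-only regions. AP-1 was present in 23.8% of the regions on chromosome 21 (21 regions) to 66.7% on chromosome 16 (21 regions), among chromosomes with at least 20.

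**Figure D5:**
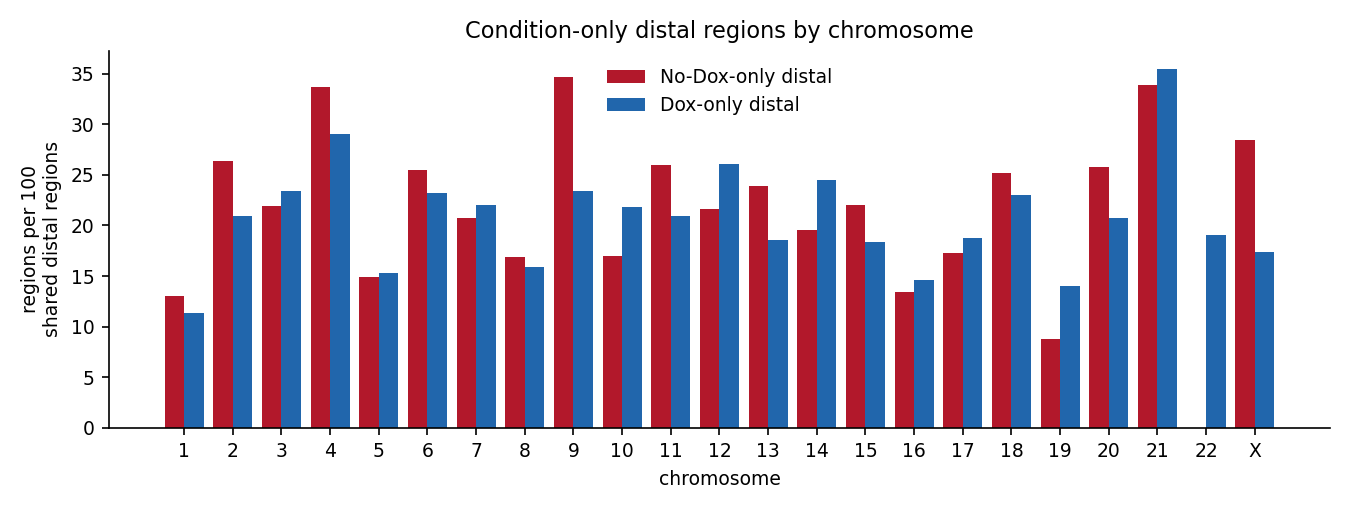
Number of condition-only distal regions (No-Dox-only and Dox-only bars) per 100 shared distal regions (vertical axis) on chromosomes 1 to 22 and X. The bars of No-Dox-only regions run from 0 on chromosome 22 to 34.7 on chromosome 9.

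Most of the regions stood alone. Another No-Dox-only distal region lay within 50 kb of 14.7% (13.1 to 16.3) of them, and the same held for 14.3% (12.7 to 16.0) of Dox-only regions. A Dox-only distal region lay within 50 kb of 8.37% (7.16 to 9.72). Of the windows of 1 Mb, the one with the most was chr1:242000000-243000000, about PLD5, MAP1LC3C and CEP170, with 7 No-Dox-only, 0 Dox-only and 20 shared distal regions. The window before it, chr1:241000000-242000000, held 6, 0 and 25. The window chr20:57000000-58000000 held 6, 0 and 5. Its regions included 2 within BMP7, a ligand of the TGF-beta superfamily, at folds of 8.26 and 8.05, and 1 within PMEPA1, a known TGF-beta target that limits SMAD signalling, at fold 6.14. The first 1 Mb of chromosome 2, about FAM110C, ALKAL2 and TMEM18, held 6, 0 and 7. These windows were picked for their number of No-Dox-only regions, so their counts are a description.

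A coding TSS lay within 100 kb of 1111 of the 1863 regions, 59.6% (57.4 to 61.9), and each of these was assigned to the nearest coding gene. The assignment is by distance and says nothing of which gene a region acts on. It gave 961 genes, 4.9% of the 19618 coding genes, and the Dox-only distal regions gave 964 genes, 4.91%. Of the 961 genes, 830 had exactly 1 No-Dox-only region and 16 had 3 or more. Both kinds of region were assigned to 177 genes, 18.4% of each list. Most of the 961 genes had open promoters in both conditions: 75.7% (72.8 to 78.3) had a promoter peak in both lists, against 63.6% of all coding genes and 76.0% (73.2 to 78.7) of the genes with a Dox-only region. A promoter peak in No Dox alone was present in 5.41% (4.07 to 7.04) and in Dox alone in 1.14% (0.573 to 2.04), against 3.98% and 5.75% of all coding genes. Genes with a Dox-only region had a promoter peak in Dox alone in 3.22% (2.20 to 4.53), an interval that lies above that of the genes with a No-Dox-only region.

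The genes with the most No-Dox-only regions were NAV3, SEMA6D and ZPLD1, with 4 each. NAV3 encodes a neuron navigator protein of the cytoskeleton, and its regions had folds of 10.8, 10.6, 6.78 and 6.78, beside 2 Dox-only and 3 shared distal regions. SEMA6D, a semaphorin of axon and cell guidance, had folds of 8.47, 7.20, 6.99 and 6.78, and AP-1 in 2 of the 4. ZPLD1 had folds of 8.05, 6.99, 6.99 and 6.78 and no promoter peak in either list. A further 7 genes, with 3 regions each, were the next by fold. CCSER1 had a highest fold of 15.0, CEP128, a centriole gene, of 11.9, and KAZN, whose product kazrin is linked to desmosomes, of 9.96. FAM110C reached 9.74, SLC18A1, a vesicular monoamine transporter, 8.69, and TENM4, a teneurin of cell contacts, 8.69. EXT1, an enzyme of heparan sulfate synthesis, reached 8.47. CEP128, KAZN, FAM110C, SLC18A1 and TENM4 had 0 Dox-only regions, while CCSER1 had 1 and EXT1 had 2.

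Of the 10 regions of the highest fold, 6 lay over 100 kb from a coding TSS. After the one near BCHE, which encodes butyrylcholinesterase, came the regions whose nearest coding TSS were those of TRIM32, a ubiquitin ligase, at 169 kb, and FBN2, a fibrillin of elastic fibres, at 188 kb, with folds of 17.6 and 17.4. The FBN2 region lay within the gene, in an exon. The ANK2 region, in an exon of this ankyrin gene 7.16 kb from a coding TSS, had a fold of 16.5 and an AP-1 match. The region near PYDC2 also had 16.5. The PDGFD region, 188 kb from the coding TSS of this platelet-derived growth factor, had 15.9. A region in an intron 4.03 kb from a TSS of PVT1, whose nearest coding TSS was that of MYC at 297 kb, had 15.9 too, with matches of AP-1, NF-kB and GRHL, and a Dox peak began 470 bp away. ACVR2A, an activin receptor, at 461 kb, NPFFR2 and DSC3, a desmosomal cadherin, at 647 kb, completed the 10 with folds of 15.3, 15.0 and 15.0. Of the 10, 5 held an AP-1 match. A region of CCSER1 had the same fold of 15.0 as those of NPFFR2 and DSC3 and fell outside the 10. It lay 81.5 kb from a coding TSS and held no AP-1 match, so the counts over the 10 depend on how this tie was cut.

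Gene lists of 20 kinds were then counted, against the 4.9% of all coding genes with a No-Dox-only region and the 4.91% with a Dox-only one. They hold 10 to 29 genes each, so intervals are wide, and in each of the 20 lists the interval of the No-Dox-only share overlapped that of the Dox-only share and held the share of all coding genes. With a TSS within 20 kb in place of 100 kb, 10 of the lists that had a gene with a No-Dox-only region had none, and over all coding genes there were 367 genes in place of 961. The 10 were the epithelial factors, the luminal genes, the EGF receptor, Notch, TGF-beta, YAP/TAZ and cell cycle lists, the mesenchymal genes and the endothelial and MCF10A markers. The median number of No-Dox-only regions per gene was 0 in every list, as over all coding genes.

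Of 28 genes of adherens, tight and desmosomal junctions, 4 had a No-Dox-only region, 14.3% (4.03 to 32.7), and 2 had a Dox-only one. CTNND1, of p120-catenin, had 2 at folds of 10.4 and 8.90. The first of these lay outside the gene, 95.9 kb from its coding TSS, with a Dox peak 837 bp away. The TSS nearest to it was that of OR5AZ1P, at 15.5 kb. PKP2, of the desmosomal plakophilin 2, had 1 at fold 10.6, 20.3 kb from a TSS. CLDN8, a claudin, had 1 at 8.69. Of 20 genes of basal keratins, laminins and hemidesmosomes, 2 had a No-Dox-only region and 3 a Dox-only one. These were FAT2, a cadherin of basal epithelium, in an intron at fold 11.2, and PERP. Of 16 epithelial transcription factors, 2 had one, TFAP2A at fold 6.35 and TP63 at fold 6.14. The TP63 region lay in an intron 4.85 kb from MIR944 and held an AP-1 match, and 5 shared distal regions had TP63 as their nearest coding gene. Of 19 luminal genes, 1 had a No-Dox-only region and 1 a Dox-only one. Of 23 genes of squamous differentiation, SERPINB5, of maspin, had 1 at fold 6.57, 4.14 kb upstream.

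Of 29 NF-kB, TNF and chemokine genes, 3 had a No-Dox-only region and 1 a Dox-only one. SOD2, the mitochondrial superoxide dismutase, had 2 at folds of 9.53 and 9.11, PTGS2, of cyclooxygenase 2, had 1 at 8.47 and BIRC3, an inhibitor of apoptosis, 1 at 8.05. Of 12 complement genes, 2 had one, among them the complement regulator CD46 at fold 10.8, and 1 had a Dox-only region. None of 19 interferon response genes had one, and 2 had a Dox-only region. Of 18 genes of the EGF receptor, its ligands and feedback, EGFR had 1 at fold 7.20 in its first intron, beside 7 shared distal regions, and NRG1 had 1 at 6.57, while 3 genes had a Dox-only region. In the Notch pathway 2 of 13 had one, RBPJ at 7.63 and MAML2 at 7.20, and 3 had a Dox-only region. In the TGF-beta pathway 3 of 15 had one, the receptors BMPR1B at 6.78 and TGFBR2 at 6.57 and the transducer SMAD2 at 6.14, and 2 had a Dox-only region. These regions lay 26.9, 61.4 and 97.6 kb from the coding TSS, and a Dox peak lay 283 bp from that of SMAD2.

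Of 26 YAP/TAZ targets and Hippo pathway genes, 2 had a No-Dox-only region, 7.69% (0.946 to 25.1), and 8 a Dox-only one, 30.8% (14.3 to 51.8). The 2 were AMOTL1 at fold 6.78 and VGLL3, a TEAD cofactor, at 6.35, and both regions held an AP-1 match. Of 22 mesenchymal genes and EMT factors, 2 had a No-Dox-only region, 9.09% (1.12 to 29.2), and 6 a Dox-only one, 27.3% (10.7 to 50.2). POSTN, of the matrix protein periostin, had 1 at 6.99 and TNC, of tenascin C, 1 at 6.14, and each had 1 Dox-only region as well. The No-Dox-only regions lay 87.8 and 95.6 kb from the coding TSS of POSTN and TNC, nearer to TSS of LINC00547 and DELEC1. Of 20 cell cycle genes, CDK6 had 1 at 6.35 and MYC 1 at 6.14, and 0 had a Dox-only region. The MYC region lay 93.6 kb from the coding TSS, nearer to a TSS of PVT1 at 14.1 kb, with a Dox peak 829 bp away. None of the 16 AP-1 and related factors, the 12 glucocorticoid receptor genes and targets, the 15 housekeeping genes or the 12 immune markers had a No-Dox-only region, where 1, 1, 2 and 1 had a Dox-only one. Of 10 endothelial markers EMCN had 1, at fold 6.78, with no promoter peak in either list. Of the 10 MCF10A markers EGFR and TP63 had 1 each, as above.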

How the data were processed

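Peaks were taken from 1 pooled list per condition. The authors mapped reads with BWA (hg38). From the 2 replicates together they called peaks, using MACS2 and an FDR of 0.05. The tool versions are not given in the sources used here. The deposited fold of a peak is its enrichment at the summit over background, a ratio, and the deposited −log10 of its q-value was used only for alternatives. Pooling hides the spread between replicates, and a deeper library can yield more peaks, so that a missing Dox peak may depend on depth.

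Overlapping or touching peaks were merged, with chromosome Y and other sequences left out. Distances ran from the region's edge to the nearest GENCODE 44 TSS. Motif matches were read up to 100 bp from the highest peak's summit, in shared regions that of No Dox. Genes were named by a rule: the 10 with the most regions, those nearest to the 10 strongest regions, and up to 4 per list. The values of some genes this rule names are not reported here. Sequences are of the strongest regions outside exons and chromosome 8. The regions, motifs and lists were chosen with earlier results of these data known. Steps were tested on simulated data. Alternatives were other fold and q-value limits, lists of equal length, merging within 200 bp, no Dox peak within 1 kb, coding TSS alone, leaving out chromosomes 1, 5 and 8, other motif windows, a TSS within 20 kb for genes and, chosen after seeing the data, distances from the summit. Python 3.11.15, numpy 2.4.6, pandas 2.3.3, scipy 1.17.1, pysam 0.24.0, samtools 1.23.1 and matplotlib 3.10.9 were used. The study's read counts and its other assays were not analysed here.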

Additional observations from a re-analysis of the deposited data

How the results depend on the processing

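With a fold of at least 5 there were 4020 regions, 18.3% of the distal regions of that fold, and AP-1, C/EBP and p53/p63 were present in 36.6%, 22.7% and 2.46%. With a fold of at least 8 there were 552 regions, 6.82% of the distal ones, with C/EBP in 31.9% and introns at 53.4%. The No-Dox-only share of distal regions was 17.1% at a q-value of 1e-05, 11.8% without a Dox peak within 1 kb, 10.6% with coding TSS alone, where introns held 62.2%, and 13.8% without chromosomes 1, 5 and 8. Within 50 bp of the summit AP-1, TEAD, C/EBP and p53/p63 were present in 27.8%, 1.88%, 15.5% and 1.93%, and in whole regions in 52.0%, 15.4%, 47.0% and 5.37%, windows that by construction hold fewer or more bases. With a TSS within 20 kb, 367 coding genes had a No-Dox-only region in place of 961, and of the 20 lists 13 moved by more than 1.5 times, 10 of them to 0 genes, and 7 did not. Shortening the No Dox list to the length of the Dox list drops its peaks of the weakest q-value, could not remove a region of this fold and so tested nothing here. The other alternatives, with distances from the summit among them, stayed within the interval of the reported share or within 1.5 times the reported count. Leaving out repeats was not run, since the genome used has no repeat marks. No paired analysis was possible because the authors pooled the replicates into 1 list per condition, and leaving out a replicate was not possible either.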
